A study of Mus musculus with 6 samples.

Results

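Heme synthesis is described here by 9 genes of the 38293 in the gene counts, chosen by name and ordered along the pathway: *Slc25a38*, *Alas1*, *Alas2*, *Alad*, *Uros*, *Urod*, *Cpox*, *Ppox* and *Fech*. Each symbol was matched to its mouse Ensembl identifier, and all 9 genes were counted in every library and passed the filter on low counts. RNA came from fetal livers (FL) of C57BL/6 mouse embryos at embryonic day 14.5, with 1 embryo per library, 3 wt embryos and 3 embryos labelled as hnRNPL knock-out, called hnRNP L deficient here. According to the study's methods the cells were sorted as Lin- cKit+, that is, lineage negative and positive for the receptor c-Kit, and the deficient embryos were VavCre+ hnRNP L fl/fl, although the tissue field of the labels reads whole embryo. The Vav promoter drives Cre in blood-forming cells, so that other cells of the liver keep the gene. hnRNP L is an RNA-binding protein that acts in splicing. The labels call the controls wild-type, and the study describes its wt samples of these cells as fl/fl, so that both groups would carry floxed alleles. The embryo numbers in the labels share their first part between wt replicate 1 and deficient replicate 1, and between deficient replicates 2 and 3. The labels do not say whether this marks a litter, in which case the libraries would not all be independent.

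Heme, the iron-carrying group of hemoglobin, is made partly in mitochondria and partly in the cytosol. Glycine and succinyl-CoA are joined by 5-aminolevulinate synthase (ALAS), the product is built into a porphyrin ring in the cytosol, and the ring is oxidized and loaded with iron back in the mitochondrion. Red cell precursors, which are abundant in the fetal liver, use the erythroid ALAS encoded by *Alas2*, whereas *Alas1* encodes the enzyme found in all tissues. *Alas2* mRNA carries in its leader an iron-responsive element, a stem-loop to which iron regulatory proteins bind when iron is scarce, and transcription factors such as GATA1 act on several genes of the pathway.

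The iron-responsive element sets *Alas2* apart from *Alas1* and is shown for that reason. A search of the first 150 bases of protein-coding transcripts for a C, 5 paired bases, a CAGTGN loop and 5 paired bases found the element in 1 of the 9 genes, *Alas2*, and in 0.114% of 21901 genes. It lies at bases 87 to 112 of the mRNA in the GRCm38 annotation, with 25 bases at the end of exon 1 (chrX:150547461-150547485, plus strand) and the last base at the start of exon 2. Its loop is in capitals.
Alas2 iron-responsive element: gttcgtcctCAGTGCagggcaacagg

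RefSeq promoter windows of GRCm38.p6 were at hand for 8 of the 9 genes, 11 windows in all, and the 250 bases before each start were searched on both strands for words that GATA factors can bind, namely AGATAA in the main, also the variant AGATAG, then the word TGATAA together with its variant TGATAG. Such a word stood in 3 of the 11 windows, and in 26.5% of 32851 windows of all genes. *Alas2* held 1 word, 81 to 86 bases before the start. *Cpox* held 2 that share a base, 81 to 91 bases before its start, and 6.4% of all windows held at least 2. *Uros* held 2 in the window of an internal start and none in the window of the outer RefSeq start. That outer start is not the end of the gene in the annotation used, which reaches to chr7:133710072 on the minus strand. Its window thus lies inside the annotated span of *Uros*. The word CCNCNCCC, which resembles the sites of KLF factors, stood in 7 of the 11 windows and in 45.9% of all windows. The windows of *Alas2* (chrX:150547167-150547374, plus strand, ended where the annotated exon begins), *Cpox* (chr16:58669958-58670207, plus strand) and, without a word, the outer start of *Uros* (chr7:133709296-133709545, minus strand) are shown because *Cpox* and *Uros* gave the smallest p-values of the 9 genes and *Alas2* is the erythroid member. GATA words are in capitals. A match is no evidence of binding.
Alas2 promoter: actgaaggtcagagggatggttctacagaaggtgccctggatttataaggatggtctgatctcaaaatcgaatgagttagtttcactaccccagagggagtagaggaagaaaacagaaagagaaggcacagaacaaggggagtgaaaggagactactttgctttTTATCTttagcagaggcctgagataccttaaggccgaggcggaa
Cpox promoter: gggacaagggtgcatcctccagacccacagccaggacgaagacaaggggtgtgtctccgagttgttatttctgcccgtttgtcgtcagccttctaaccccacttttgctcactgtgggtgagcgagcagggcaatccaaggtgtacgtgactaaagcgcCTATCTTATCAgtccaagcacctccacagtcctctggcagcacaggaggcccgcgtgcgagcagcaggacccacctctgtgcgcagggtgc
Uros promoter, outer start: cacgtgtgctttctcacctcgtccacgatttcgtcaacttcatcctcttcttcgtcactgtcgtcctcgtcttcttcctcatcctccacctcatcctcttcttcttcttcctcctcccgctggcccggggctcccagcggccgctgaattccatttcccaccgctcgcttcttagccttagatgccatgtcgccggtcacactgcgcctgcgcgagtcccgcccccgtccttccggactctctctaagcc

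Libraries held between 55952160 and 76157226 reads on genes, and 3 reads correspond to at most 0.0540 CPM (read counts scaled by the normalized library size), so that for whole genes at the levels of the 9 the spread between embryos is the larger error, whereas exon bins with few reads carry counting error as well. *Hnrnpl* fell from 537 ± 13.2 CPM (SD, n = 3) in wt to 267 ± 23.2 CPM (n = 3) in the deficient libraries, with adjusted p = 0.0072 in edgeR. wt replicate 2 stood apart in markers of granulocyte and monocyte precursors. Their 7 genes, led by *Mpo*, summed to 7847 CPM there, 564 and 1449 CPM in the other wt libraries and 234 to 763 CPM in the deficient libraries. wt replicate 2 was the highest wt library in 7 of 7, and in 39.9% of all genes tested. Erythroid markers were present throughout. The 14 markers of maturing erythroid cells, led by *Ermap*, summed to 2686 to 3214 CPM in wt and 2387 to 3411 CPM in the deficient libraries, and the 6 of erythroid progenitors, led by *Tfrc*, to 2195 to 2653 CPM and 2322 to 2471 CPM. Hepatocyte markers, led by *Afp*, summed to 113 to 243 CPM in wt and 21.3 to 73.8 CPM in deficient libraries. Every deficient library lay below every wt library in 8 of 8 tested hepatocyte markers, and 1 was called lower. Macrophage markers, led by *Vcam1*, summed to 7.69, 26.3 and 8.22 CPM in wt and to 1.37, 3.50 and 3.13 CPM in the deficient libraries. Every deficient library lay below every wt library in 6 of 6 tested macrophage markers, 3 were called lower, and *Cd163* was at 0 in all 6 libraries. Of all genes tested, 22.7% had every deficient library below every wt library and 9.85% were called lower. Mast cell markers, led by *Cpa3*, summed to 22.1 to 84.4 CPM in wt and 13.4 to 53.7 CPM in the deficient libraries. The part of these cells in the levels of the 9 genes was not tested. Megakaryocyte markers, led by *Itga2b*, summed to 82.8 to 134 CPM in wt and 77.1 to 103 CPM in the deficient libraries. Of the antigens in the sort's lineage cocktail, *Cd8a* was at 0 in all 6 libraries, and *Cd3e*, *Ly6g* and *Klrb1c* did not pass the filter on low counts. In such libraries fewer cells of a type and less RNA per cell cannot be told apart.

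Loss of hnRNP L left most of the pathway without a call. By edgeR's quasi-likelihood test over 14396 genes with Benjamini-Hochberg adjustment, 1 of the 9 genes was called lower at an adjusted p under 0.05, *Uros*, 0 were called higher and 8 had no call. Of all genes tested 19.2% were called, 9.32% higher and 9.85% lower. Without adjustment 2 of the 9 genes, *Uros* and *Cpox*, had a p under 0.05. Over the 9 genes the log2 fold changes had a median of -0.19, beside -0.03 over all genes tested, and the median size of the change was 0.20 on the log2 scale beside 0.30. The median standard error of 0.15 was close to the 0.16 of all genes. A missing call does not show that a gene stayed the same, and the intervals below give what the libraries allow.

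**Figure D1:**
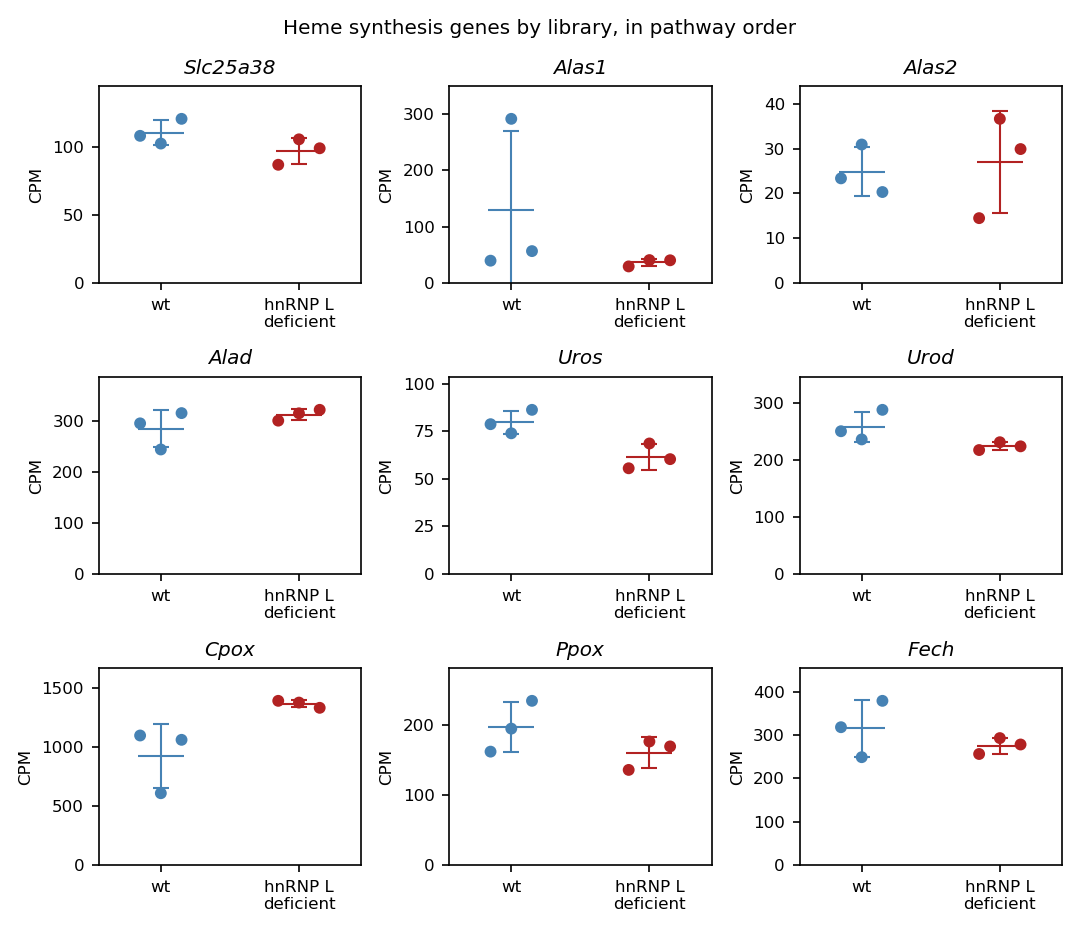
Level of each of the 9 genes in the 3 wt (blue) and 3 hnRNP L deficient (red) libraries, in CPM, in pathway order; points are libraries from replicate 1 to replicate 3, the horizontal bar is the group mean and the error bar its SD, which for wt *Alas1* reaches below 0 and is cut at the axis. The deficient libraries of *Cpox*, between 1332 and 1391 CPM, lie above all wt libraries, those of *Uros* and *Urod* lie below, and the wt mean of *Alas1* is set by wt replicate 2.

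The pathway starts with the supply of glycine. *Slc25a38* (ENSMUSG00000032519, chr9:120110374-120124504), the carrier that brings glycine into mitochondria, stood at 108, 102 and 121 CPM in wt replicates 1 to 3 and at 86.9, 106 and 99.0 CPM in deficient replicates 1 to 3. The groups overlapped through deficient replicate 2, and the log2 fold change of -0.18 ± 0.10 (SE) had an adjusted p of 0.22 in edgeR.

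*Alas1* (ENSMUSG00000032786, chr9:106233455-106248654), the ALAS of all tissues, was measured at 39.7, 292 and 56.7 CPM in wt and at 29.5, 40.8 and 40.4 CPM in the deficient libraries. wt replicate 2 was 7.35-fold above the lowest wt library, and it is the library with the high granulocyte and monocyte markers; the part of these in the *Alas1* level was not tested. The other wt libraries overlapped the deficient ones. Over all libraries the log2 fold change was -1.81 ± 0.83 with adjusted p = 0.18, and without wt replicate 2 it was -0.39 with adjusted p = 0.17, both in edgeR. The wt mean without that library was 48.2 CPM, beside 36.9 ± 6.41 CPM in the deficient libraries.

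*Alas2* (ENSMUSG00000025270, chrX:150547375-150570638), the erythroid enzyme whose loss causes sideroblastic anemia, did not separate the groups. Its levels were 23.4, 30.9 and 20.3 CPM in wt and 14.5, 36.6 and 29.9 CPM in the deficient libraries. The lowest and the highest of the 6 values were both in deficient libraries, which differed by up to 2.53-fold among themselves. The log2 fold change of 0.12 ± 0.34 had a 95% interval of -0.71 to 0.95 and an adjusted p of 0.83 in edgeR, so that neither a fall nor a rise of moderate size could be told from no change. Its sign turned without wt replicate 3 (-0.01) and without deficient replicate 2 (-0.15). The annotation places 311 exon bases of *Alas2* on the opposite strand of *Apex2* exons, and whether strand was used in counting is not given in the sources used here.

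The balance of *Alas2* and *Alas1* can be read within a library, without scaling. *Alas2* counts were 0.588, 0.106 and 0.358 of *Alas1* counts in wt and 0.491, 0.899 and 0.740 in the deficient libraries. The lowest ratio was in wt replicate 2, and the 2 highest were in deficient replicates 2 and 3. The mean log2 ratio was 1.29 higher in the deficient libraries, with p = 0.2 in an exact two-sided permutation test, whose smallest possible p with 3 against 3 libraries is 0.1. Without wt replicate 2 the difference was 0.59. Per kb of exon, *Alas2* made up 60.2%, 21.4% and 47.9% of the transcripts of both genes in wt and 55.8%, 69.8% and 65.5% in the deficient libraries, taking merged exons as the length. With the principal transcript of each gene, a length chosen after the data were seen, these shares were 49.5%, 15.02% and 37.4% in wt and 45.04%, 59.99% and 55.3% in the deficient libraries, lower in each library but in the same order.

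*Alad* (ENSMUSG00000028393, chr4:62509169-62519918) encodes the enzyme that joins 2 molecules of 5-aminolevulinate, which lead poisons. It was at 296, 245 and 316 CPM in wt and at 302, 316 and 323 CPM in the deficient libraries. The groups overlapped, with wt replicate 2 the lowest, and the log2 fold change of 0.13 ± 0.11 had an adjusted p of 0.39 in edgeR.

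*Uros* (ENSMUSG00000030979, chr7:133686243-133710072), which encodes uroporphyrinogen III synthase, the enzyme that closes the ring and is deficient in congenital erythropoietic porphyria, was the gene called lower. wt libraries held 78.8, 74.0 and 86.3 CPM and deficient libraries 55.6, 68.6 and 60.4 CPM. Every deficient library lay below every wt library, as was so for 22.7% of all genes tested. The level in the deficient libraries was 77.2% of that in wt (log2 fold change -0.37 ± 0.10, 95% interval -0.61 to -0.14, adjusted p = 0.0436 in edgeR). The call was held by 6 of 6 alternative fits over all libraries and by 1 of 6 when single libraries were left out. The adjusted p was 0.0537 without wt replicate 1, 0.114 without wt replicate 3, and 0.153, 0.0838 and 0.167 without deficient replicates 1, 2 and 3.

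*Urod* (ENSMUSG00000028684, chr4:116989965-116994413), the decarboxylase that follows, moved by less. It was at 250, 235 and 287 CPM in wt and at 217, 231 and 223 CPM in the deficient libraries, again with no overlap, although wt replicate 2 and deficient replicate 2 lay close together. The log2 fold change of -0.20 ± 0.09 had an adjusted p of 0.147 over all libraries and of 0.0422 without wt replicate 2, both in edgeR.

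*Cpox* (ENSMUSG00000022742, chr16:58670292-58717636), coproporphyrinogen oxidase, with which the pathway returns to the mitochondrion, had the largest difference towards the deficient libraries among the 9 genes. It was at 1097, 608 and 1061 CPM in wt and at 1391, 1376 and 1332 CPM in the deficient libraries. Every deficient library lay above every wt library, as for 22.7% of all genes tested, and the deficient libraries agreed within 1.04-fold whereas wt libraries differed by up to 1.80-fold, with wt replicate 2 the lowest. The fold was 1.48 (log2 fold change 0.57 ± 0.21, 95% interval 0.07 to 1.07), and it was not called, with adjusted p = 0.0995 in edgeR. DESeq2 called it, with adjusted p = 0.0232. Without wt replicate 2 the difference was smaller and more even, 0.34 on the log2 scale, and was called with adjusted p = 0.0174 in edgeR.

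**Figure D2:**
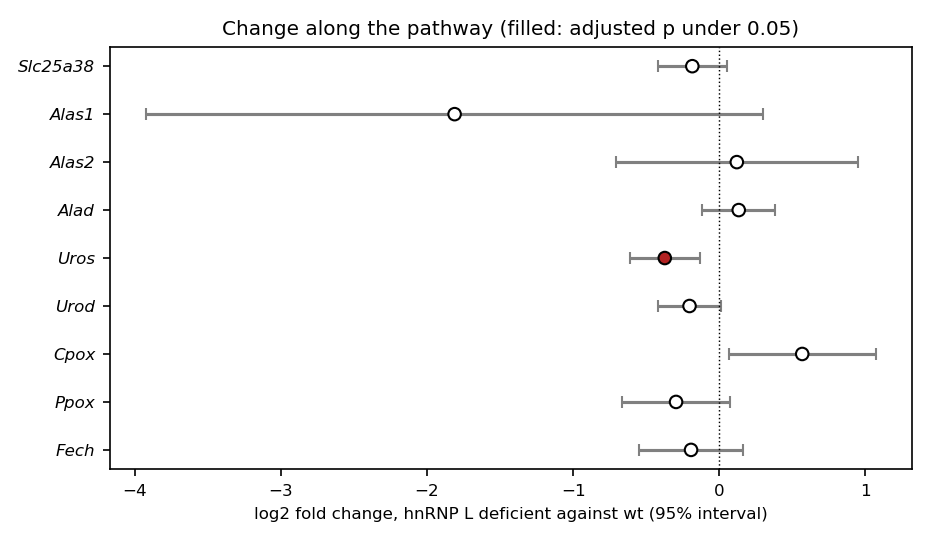
Log2 fold change of the 9 genes, hnRNP L deficient against wt, from edgeR with all 6 libraries, in pathway order from top to bottom; bars are 95% intervals and a filled point marks an adjusted p under 0.05. *Uros* at -0.37 is the only filled point, *Cpox* at 0.57 has an interval above 0 without a call, and the interval of *Alas1* is the widest.

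*Ppox* (ENSMUSG00000062729, chr1:171275990-171281186) encodes protoporphyrinogen oxidase of the inner mitochondrial membrane. Its levels were 162, 195 and 235 CPM in wt and 136, 177 and 170 CPM in the deficient libraries. The groups overlapped, and the log2 fold change of -0.30 ± 0.16 had an adjusted p of 0.21 in edgeR. *Ppox* shares 791 exon bases with *B4galt3* on the opposite strand. The study used a stranded library kit, but whether strand was used in counting is not given. The counts of *Ppox* could therefore be affected in these bases, in a direction that was not tested.

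*Fech* (ENSMUSG00000024588, chr18:64452914-64490251), ferrochelatase, which inserts the iron, closed the pathway. It was at 319, 249 and 379 CPM in wt and at 257, 293 and 279 CPM in the deficient libraries. wt libraries held both the lowest and the highest value. The log2 fold change was -0.19 ± 0.15 with adjusted p = 0.38, and without wt replicate 2 it was -0.34 with adjusted p = 0.0422, both in edgeR.

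Levels of different genes were compared only per length, as CPM per kb of merged exons (RPKM). In wt the order of the means was *Alad* with 153 ± 19.7 RPKM, *Cpox* with 138 ± 40.9, *Urod* with 99.4 ± 10.3, *Ppox* with 43.7 ± 8.06, *Slc25a38* with 40.2 ± 3.38, *Fech* with 22.8 ± 4.71, *Uros* with 22.3 ± 1.74, *Alas1* with 20.96 ± 22.8 and *Alas2* with 10.3 ± 2.27 RPKM (SD, n = 3). Ranges of wt libraries overlapped between *Alad* and *Cpox*, *Cpox* and *Urod*, *Ppox* and *Slc25a38*, *Fech* and *Uros*, *Uros* and *Alas1*, and *Alas1* and *Alas2*. Within each wt library *Cpox* still lay above *Urod*, by little in wt replicate 2 (91.3 and 90.9 RPKM). The other neighbours in this list changed order between wt libraries. *Urod* lay above *Ppox* and *Slc25a38* above *Fech* in every wt library. In the deficient libraries *Cpox* came first with 205 ± 4.62 RPKM, above *Alad* with 168 ± 5.80 RPKM in each of the 3 libraries. *Alas1* came last with 5.97 ± 1.04 RPKM, next to *Alas2* with 11.2 ± 4.73 RPKM. Their ranges overlapped, although *Alas1* was the lower of the 2 in each deficient library. By the group means of this measure the 2 ALAS genes were the lowest of the pathway in both groups. This did not hold in wt replicate 2, where *Alas1* at 47.3 RPKM stood above *Ppox* at 43.2 RPKM. The order depends on the length taken: with the principal transcript in place of merged exons 7 of 9 genes kept their wt rank, *Cpox* then leading *Alad*, and with the longest transcript 1 of 9. The annotation used has more exon bins than the deposited bins for *Fech*, *Cpox*, *Alas1*, *Uros* and *Ppox*, so that merged lengths of these genes may exceed the length that was counted.

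Summed over the 9 genes, the pathway held 556, 492 and 604 RPKM in wt and 560, 604 and 588 RPKM in the deficient libraries. The sums overlapped and differed by 0.09 on the log2 scale (p = 0.5, exact two-sided permutation test). *Cpox* alone made up 29.6%, 18.6% and 26.4% of the sum in wt and 37.3%, 34.2% and 34.0% in the deficient libraries, without overlap.

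The patterns of the ALAS genes over the 6 libraries differed from each other, and so did the genes most like them. Likeness was the root mean square difference of log2 CPM, centred on each gene's mean, among 8601 genes with a mean of at least 10 CPM. Nearest to *Alas2* were the alpha-globin genes *Hba-a2* (0.167) and *Hba-a1* (0.206), then *Slc25a37* (0.245), which encodes the mitochondrial iron carrier mitoferrin, the beta-globin gene *Hbb-bs* (0.255) and the predicted gene *Gm16973* (0.257). *Hba-a2* was at 47.5, 69.5 and 39.1 CPM in wt and at 23.8, 64.5 and 48.7 CPM in the deficient libraries, so that, as for *Alas2*, deficient replicate 1 was the lowest and wt replicate 2 and deficient replicate 2 were the 2 highest. Globin genes have near-identical copies, and reads may have been split or lost among them. Nearest to *Alas1* were *S100a11* (0.113), *Slc8b1* (0.122), *Palm* (0.125), *Cd63* (0.128) and *Rab32* (0.140), which share its high value in wt replicate 2. *Cd63*, a tetraspanin of granule and lysosome membranes, was at 16.0, 119 and 21.6 CPM in wt and 14.5, 18.8 and 18.0 CPM in the deficient libraries. These likenesses are descriptions over 6 libraries and carry no test.

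**Figure D3:**
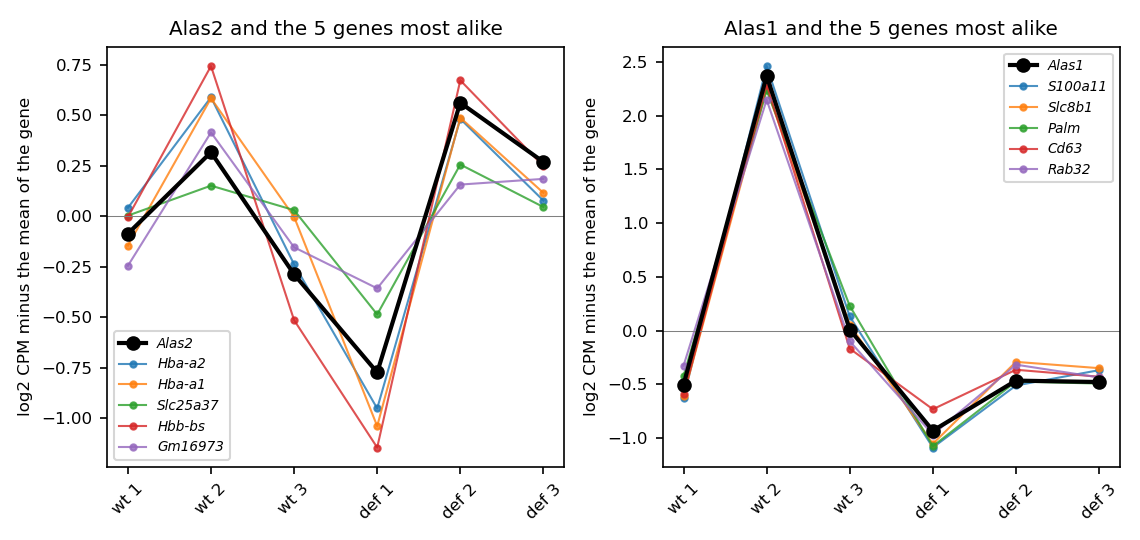
Log2 CPM minus the gene's mean in the 3 wt and 3 hnRNP L deficient (def) libraries, for *Alas2* (left, black) and *Alas1* (right, black) with the 5 genes nearest to each; the lines join libraries only to guide the eye. *Alas2* and the globin genes are lowest in deficient replicate 1, and *Alas1* and its neighbours peak in wt replicate 2.

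Of 60 tested genes that act around the pathway, 8 were called, 5 higher and 3 lower, beside 19.2% of all genes tested. The lists were drawn up from the roles of the genes. Among 12 genes of heme and porphyrin transport 1 was higher, 1 lower and 10 had no call. *Abcb10*, a transporter of the inner mitochondrial membrane that erythroid cells need for heme synthesis, was at 218, 216 and 246 CPM in wt and at 137, 166 and 138 CPM in the deficient libraries. It fell by 0.63 on the log2 scale (SE 0.10, adjusted p = 0.0151 in edgeR), with no overlap of the groups. *Flvcr1*, whose product exports heme, was at 69.7, 43.7 and 56.6 CPM in wt and at 91.9, 83.3 and 90.6 CPM in the deficient libraries, and rose by 0.65 (SE 0.16, adjusted p = 0.0347).

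Among 10 genes of heme breakdown and sensing 0 were higher, 1 lower and 9 had no call. *Bach1*, a repressor that heme inactivates, was at 61.3, 61.6 and 59.1 CPM in wt and at 41.9, 41.7 and 39.6 CPM in the deficient libraries. It fell by 0.56 on the log2 scale (SE 0.07, adjusted p = 0.0102 in edgeR), and the spread within each group was small beside the gap. Its target *Hmox1*, heme oxygenase, named here after its values were seen because of that link, was at 3.87, 3.94 and 4.21 CPM in wt and at 2.02, 2.77 and 3.05 CPM in the deficient libraries, without a call (log2 fold change -0.62 ± 0.22, adjusted p = 0.0867).

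Among 9 genes that supply succinyl-CoA and glycine 1 was higher, 1 lower and 7 had no call. *Dlst*, the core subunit of the 2-oxoglutarate dehydrogenase complex that makes succinyl-CoA, rose from 310, 277 and 298 CPM to 361, 359 and 366 CPM (log2 fold change 0.29, adjusted p = 0.0359 in edgeR). *Suclg2*, a subunit of the GTP-forming succinyl-CoA synthetase, fell from 123, 107 and 111 CPM to 93.8, 94.9 and 94.6 CPM (log2 fold change -0.26, adjusted p = 0.0488).

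Iron-sulfur clusters are made in the same compartment and compete for iron, and mammalian FECH carries such a cluster. Of 14 genes of their assembly 3 were higher, 0 lower and 11 had no call, beside 9.32% of all genes called higher. *Iscu*, the scaffold on which clusters form, was at 31.3, 31.5 and 27.95 CPM in wt and at 44.0, 41.1 and 43.8 CPM in the deficient libraries, and rose by 0.51 on the log2 scale (SE 0.08, adjusted p = 0.0157 in edgeR). *Fdx2*, the ferredoxin that feeds electrons to the scaffold, was at 32.8, 35.4 and 32.5 CPM in wt and at 48.4, 46.9 and 46.2 CPM in the deficient libraries, and rose by 0.49 (SE 0.07, adjusted p = 0.0144). *Hspa9*, the mitochondrial HSP70 chaperone that also serves protein import, rose from 1119, 837 and 909 CPM to 1392, 1307 and 1330 CPM (log2 fold change 0.49, SE 0.12, adjusted p = 0.0326).

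In none of these 8 genes did the groups overlap, and of all genes tested 45.5% had no overlap. The 8 were picked by their call on the same libraries, so that this adds no support. *Suclg2* lost its call in 3 of 6 other fits over all libraries, and the other 7 genes kept theirs in 6 of 6. All 8 kept their call in 2 of 6 fits without a single library and lost it without wt replicate 3 or any of the 3 deficient libraries.

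The 4 genes for folding and turnover of ALAS had no call, and neither had the 11 tested regulators of heme genes. *Lonp1*, a mitochondrial protease that can degrade ALAS1, stood highest of the former, at 215, 194 and 233 CPM in wt and at 269, 261 and 254 CPM in the deficient libraries, with no overlap (log2 fold change 0.29, adjusted p = 0.0558 in edgeR). *Clpx*, the chaperone that activates ALAS, followed with an adjusted p of 0.188. Of the regulators, *Ldb1*, which holds an erythroid complex with GATA1 together, and *Zfpm1*, the cofactor FOG1 of GATA1, were highest by mean CPM. *Ldb1* was at 472, 454 and 588 CPM in wt and at 468, 461 and 453 CPM in the deficient libraries, with overlap, and *Zfpm1* at 391, 243 and 474 CPM and at 553, 456 and 464 CPM (adjusted p = 0.242). In 5 of the 11 every deficient library lay above every wt library, where the share among all genes was 22.7%. wt replicate 2, which had the high granulocyte and monocyte markers, was the lowest wt library in 10 of the 11, and in 35.9% of all genes tested. *Gata1* itself, also a listed progenitor marker, was among the 5 without overlap. It was at 251, 181 and 248 CPM in wt and at 318, 299 and 298 CPM in the deficient libraries. Its adjusted p was 0.0601 in edgeR.

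**Figure D4:**
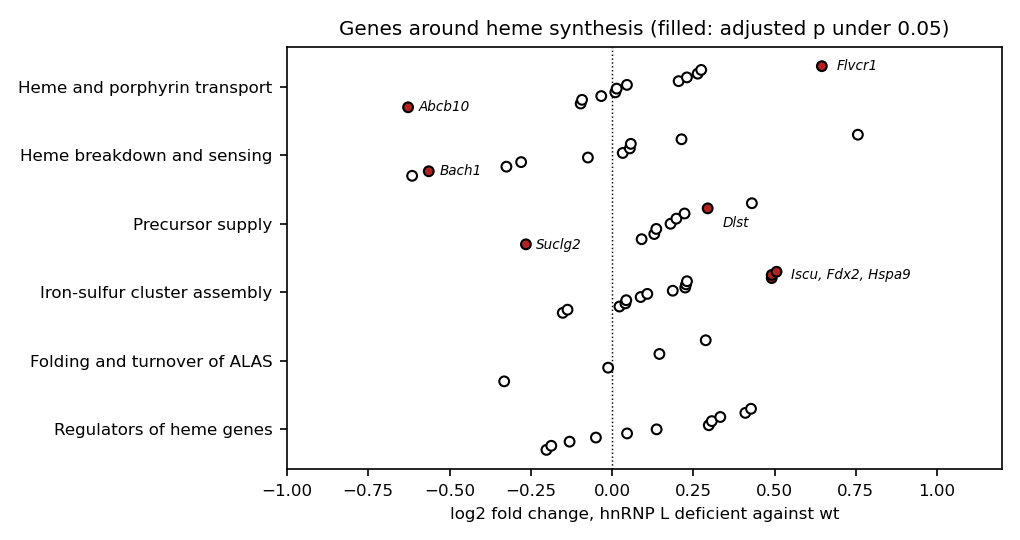
Log2 fold change, hnRNP L deficient against wt, of 60 tested genes around heme synthesis, grouped by role; each point is a gene and filled, named points have an adjusted p under 0.05 in edgeR. The 5 genes called higher lie between 0.29 and 0.65 and the 3 called lower between -0.63 and -0.26.

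Since hnRNP L acts in splicing, the exon bins of the 9 genes were compared in the 5 libraries with bin counts, 3 wt and deficient replicates 2 and 3. A bin is a stretch of exon along which the set of annotated transcripts that contain it stays the same. Its usage is its change relative to that of its gene. With a minimum of 10 reads on average, 176 of 186 bins were tested, and 0 of them were called by diffSpliceDGE of edgeR at an adjusted p under 0.05, beside 51 of 176996 bins of all genes (0.0288%). Unadjusted, 4 of the 176 bins (2.27%) had a p under 0.05, beside 1.03% of all bins, and diffSplice of limma called 1.

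That bin was *Alad* bin 6, which by the GRCm38 annotation is a stretch of 600 bases (chr4:62510924-62511523) that lies directly between bins 5 and 7 and was covered less than either. It held 528, 623 and 847 reads in wt and 504 and 591 in deficient replicates 2 and 3, where bin 5 held 2662, 2499 and 3644 reads and 3381 and 4077 reads. In CPM the bin was at 5.25, 6.10 and 6.25 in wt and at 4.17 and 4.19 in the deficient libraries. Its usage was lower by 0.62 on the log2 scale, with unadjusted p = 0.0189 and no call in edgeR and adjusted p = 0.0225 in limma, which called 0.123% of all bins.

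The other 3 bins followed each other near the 5′ end of *Slc25a38*, as its bins 3, 4 and 5. Bin 3 held 32, 15 and 48 reads in wt and 72 and 97 in the deficient libraries, and bin 4 held 235, 155 and 407 reads and 397 and 441 reads. Bin 5, which lies apart from bin 4 and was little used, held 4, 5 and 3 reads in wt and 15 and 23 in the deficient libraries. Their usage was higher by 1.34, 0.61 and 2.08 on the log2 scale, with unadjusted p = 0.0107, 0.0485 and 0.0107 in edgeR and no call in either tool. wt replicate 2 was the lowest library in bins 3 and 4. Bins of *Cpox* stayed within -0.04 to 0.12 of its gene-wide change, those of *Fech* within -0.08 to 0.22, and no bin of *Alas1*, *Alas2*, *Uros*, *Urod*, *Cpox*, *Ppox* or *Fech* had an unadjusted p under 0.05 in edgeR.

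**Figure D5:**
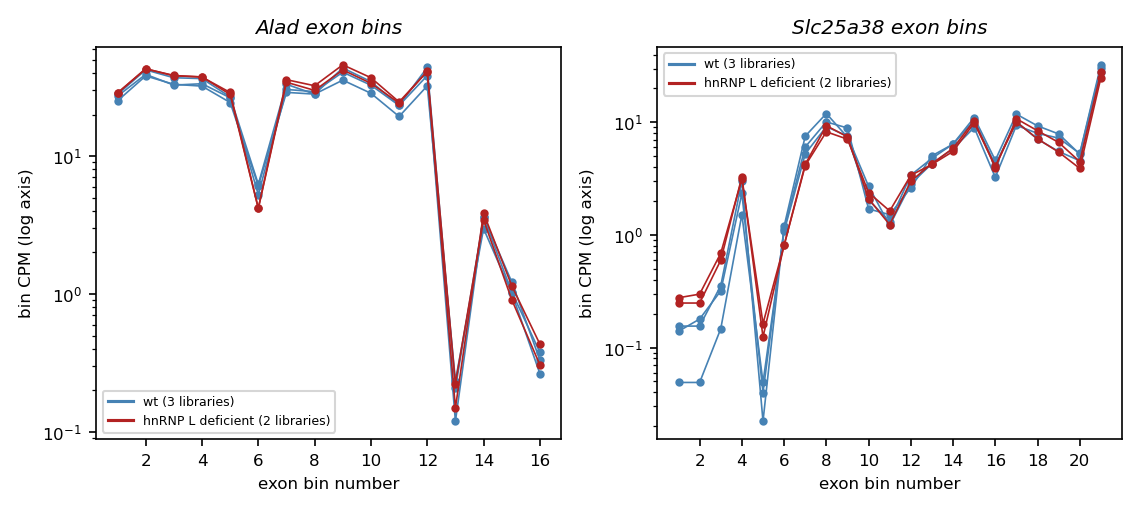
Level of each exon bin, in CPM on a log axis, against the bin number in *Alad* (left) and *Slc25a38* (right) for 3 wt (blue) and 2 hnRNP L deficient (red) libraries. At *Alad* bin 6 both deficient libraries, at 4.17 and 4.19 CPM, lie below the wt libraries at 5.25 to 6.25 CPM, and at *Slc25a38* bin 5 both lie above.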

How the data were processed

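The authors aligned reads to GRCm38 with Tophat 2.0.10, obtained Ensembl gene counts by HTSeq and exon bin counts by the script that comes with DEXSeq, and deposited these raw counts, not normalized. The Ensembl release and the strand setting are not given in the sources used here. Exon bin counts of deficient replicate 1 were not analysed here. Not every enzyme of the pathway and not every marker gene is reported here.

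Symbols were matched to GENCODE M21 identifiers, and *Fdx2* by its older symbol *Fdx1l*. The gene test was that of edgeR 4.0.16, run in R 4.3.3 (TMM, default expression filter, which kept 14396 of 38293 genes, robust quasi-likelihood test without covariates, Benjamini-Hochberg adjustment over all genes tested). Exon bins were tested with diffSpliceDGE. DESeq2 1.42.0 and limma 3.58.1 served as alternatives, beside other scalings and filters and leaving out each library. Steps were tested on simulated data, where the gene test recovered 27% of planted 1.5-fold changes and 73% of planted 2-fold changes. For exon bins only 4-fold changes were planted, and 87.6% were recovered. Replicate numbers follow the order of the samples and pair nothing. Embryo numbers share a first part in 2 pairs of libraries, and the labels do not say whether such embryos shared a litter. The p-values measure the spread between these embryos.

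The 9 genes and all lists were chosen with earlier results of these data known. Named in the text are the 9 genes, *Hnrnpl*, up to 4 called genes of each related list by size of change (of a list without a call, the 2 highest by mean CPM), the highest gene of each marker list, and the 5 genes most like *Alas1* and *Alas2*, with log2 of CPM plus 0.1. *Gata1*, *Hmox1*, *Cd163* and lineage genes at or near 0 were named after their values were seen.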

Additional observations from a re-analysis of the deposited data

How the results depend on the processing

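Of the 9 heme synthesis genes, 1 (*Uros*) was called with median-of-ratios factors, total counts, no filter or no robust estimation, 2 with DESeq2 (*Uros* and *Cpox*) and 3 with limma-voom (*Uros*, *Urod* and *Cpox*). Leaving out single libraries gave 0 to 4, and the 4 (*Uros*, *Urod*, *Cpox* and *Fech*) came without wt replicate 2. Without wt replicate 3 or any deficient library at most 0.115% of all genes were called, so that a lost call there is not particular to these genes. The 8 called genes around the pathway became 13 with DESeq2, 20 with limma-voom and 0 to 16 without single libraries. The log2 fold change of *Hnrnpl* ranged from -1.05 to -0.94 without single libraries and missed the threshold without wt replicate 3 or any deficient library (adjusted p 0.0517 to 0.0854). Of 204 refits of single named genes 2 changed sign, both of *Alas2*, whose values without single libraries ran from -0.15 (without deficient replicate 2) to 0.43. The ratio of *Alas2* to *Alas1* and the summed level kept their sign. Total counts moved the median of all genes to -0.10 and the split of calls from 1341 higher and 1418 lower to 1066 and 1751. DESeq2 called 1917 higher and 2217 lower, and limma-voom 2537 and 2751. With the longest transcript 1 of 9 genes kept its rank per length, and limma called 1 exon bin. The principal transcript was added after the data were seen. No paired analysis was possible because the labels give no replicate numbers that the groups share, and the embryo numbers share a first part between groups in 1 pair only (wt replicate 1 and deficient replicate 1). Why these values moved was not tested.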
